A study of Mus musculus with 5 samples.

Results

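The 33 genes described here concern macrophages and monocytes, and not all of them are markers of these cells. They cover the growth factor and receptor that maintain these cells, their surface proteins, and the enzymes and adaptors they use to take up and digest particles. They were given by name, in a list chosen with earlier results of these data known. Each has 1 probe set annotated to its symbol alone, so all 33 were measured among 22180 genes. The arrays carry RNA of mammary epithelial cells from 4-week-old congenic FVB/NJ mice. The 2 knockout arrays come from conditional knockouts, MMTV-Cre+/Mmp14(f/f), in which the MMTV promoter drives Cre in the mammary epithelium and floxed Mmp14 is its target. The 3 wild-type arrays come from Mmp14(f/f) littermates, which carry the same floxed alleles and no Cre. Cell aggregates were collected after collagenase digestion of the inguinal glands, freed of the lymph node, and after centrifugation steps meant to take out the stroma. Macrophages are thus not the labelled cell type. Transcripts of the 33 genes can come from leukocytes that stayed with the epithelium. Some, such as Cd14 and Lgals3, can also come from epithelial cells, and the source was not tested. The titles call the arrays biological replicates, without saying whether 1 mouse or a pool stands behind each.

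Macrophages depend on colony-stimulating factor 1, which binds the receptor tyrosine kinase CSF1R, and on the transcription factor PU.1. Inside the mammary gland they lie along the ducts and around the terminal end buds, where they clear dying cells and remodel matrix during ductal growth. They recognise antibody-coated, complement-coated or dying cells through Fc, C1q-binding and phosphatidylserine receptors. Of these, activating Fc receptors pass the signal on through adaptors with a tyrosine-based activation motif (ITAM).

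Values are log2 signals, and a difference is knockout minus wild type in log2 units. Means are given ± SD over 2 knockout and 3 wild-type arrays, and the SE of a difference is limma's. A gene was called when its Benjamini-Hochberg adjusted p over all 22180 genes was under 0.05. Signals of different probe sets cannot be ranked as levels, and without detection calls a low signal cannot be told from background. Of the 33 genes, 6 had a mean under the 40th percentile of all genes. In such bulk samples, fewer macrophages and less RNA per macrophage cannot be told apart.

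None of the 33 genes was called by limma (0 of 33, where 0 of all 22180 genes, or 0%, were called). None had an unadjusted p under 0.05 either, against 288 of all genes (1.3%), and the smallest was 0.176, that of Ptprc. The mean was lower in the knockout for 24 of the 33, higher for 8 and equal for Ccr2. The median difference was -0.09, beside 0.00 over all genes, of which 49.5% had a lower mean. The differences ran from -1.10 for Timd4 to 0.18 for Cybb. The 2 knockout values lay below all 3 wild-type values for 1 of the 33 genes (3.03%), where 2.8% of all genes did so, and above them for 0 of 33, where 2.63% of all genes did so. The SE of the 33 differences had a median of 0.17 and a range of 0.01 to 0.84, beside a median of 0.07 over all genes.

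**Figure D1:**
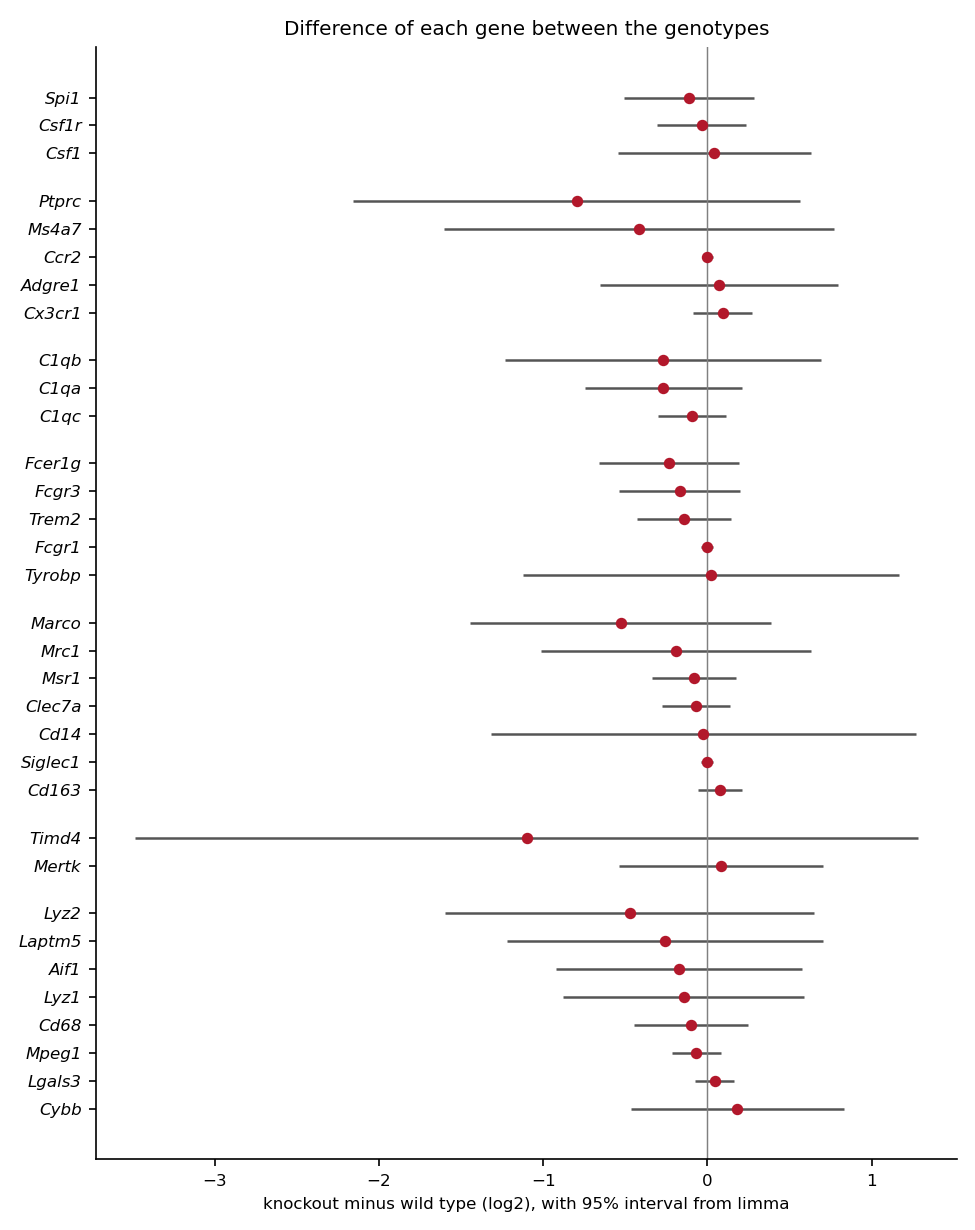
Knockout minus wild-type difference of each of the 33 genes (log2 units, points) with limma's 95% interval (bars), ordered by role. Every interval spans 0, and the widest is that of Timd4, from -3.48 to 1.28.

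The lowest array was of either genotype, while the highest was more often a wild-type array. Wild type 2 alone had the highest signal for 16 of the 33 genes (48.5%), where it did so for 15.4% of all genes. Wild type 1 alone was highest for 7 (21.2% against 15.5%) and wild type 3 for 2 (6.06% against 18.5%). Knockout 1 alone was highest for 2 (6.06% against 17.0%) and knockout 2 for 4 (12.1% against 21.4%). Wild type 3 alone had the lowest for 13 (39.4% against 15.3% of all genes), and knockout 2 alone had the lowest for another 13 (39.4% against 22.5%). The mean of the 33 genes relative to the wild-type mean was 0.17 on wild type 2, 0.07 on wild type 1 and -0.24 on wild type 3, and -0.09 and -0.22 on knockouts 1 and 2. Both knockout arrays therefore lay between the wild-type extremes. The median range over the 5 arrays was 0.58 for the 33 genes and 0.21 for all genes.

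**Figure D2:**
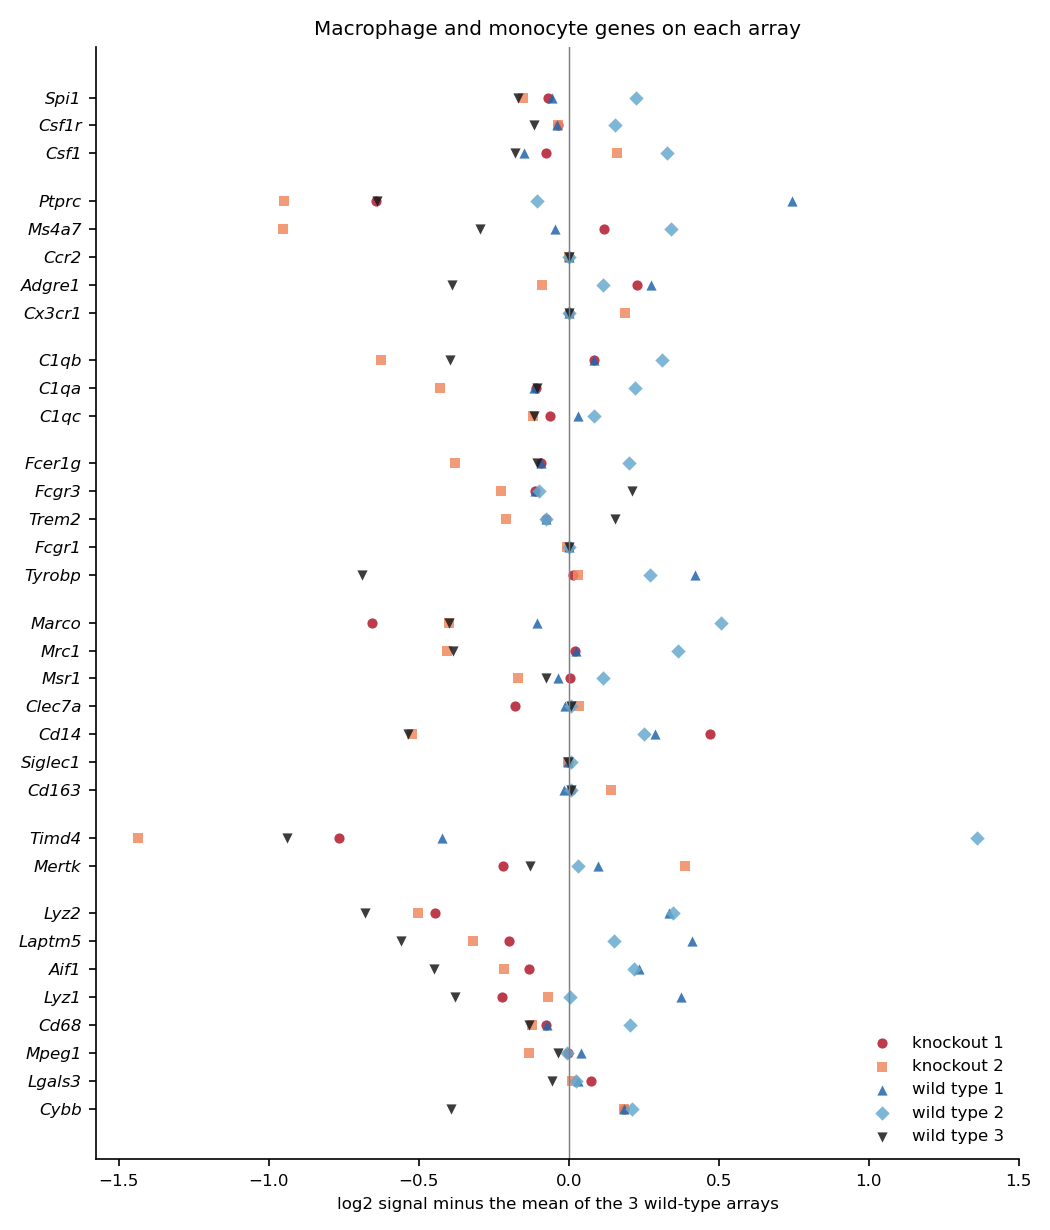
Log2 signal of each of the 33 genes on each of the 5 arrays, minus that gene's mean over the 3 wild-type arrays (x axis), ordered by role. Wild type 2 (diamonds) sits on the right for many genes, and wild type 3 (inverted triangles) and knockout 2 (squares) on the left, as the means of 0.17, -0.24 and -0.22 state.

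The array numbers in the labels form 2 consecutive runs, and what a run stands for is not given. Run 1 holds knockout 1 with wild types 1 and 2, and run 2 holds knockout 2 with wild type 3. Within run 1, 25 of the 33 genes were lower in the knockout and 4 higher, with a median of -0.12, beside 43.4% lower among all genes. Within run 2, 13 were lower and 17 higher, with a median of 0.01. A lower value in both runs was found for 11 of the 33 genes (33.3%, against 17.0% of all genes), and 12 took opposite directions. An exact tie within a run cannot count as lower. Ties between arrays were more frequent among all genes (68.8%) than among the 33 (39.4%). Of genes with 5 different values, a restriction chosen after seeing the data, 40% of 20 were lower in both runs, against 22.0% of 6930. The runs share no array. In run 1 alone limma called 0 genes (3388 at an unadjusted p under 0.05), with the spread taken from the 2 wild-type arrays, since the knockout has 1. Run 2 sets 1 array against 1 and has no test. With the run as a block in limma's fit the median was -0.08 and 0 genes were called.

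**Figure D3:**
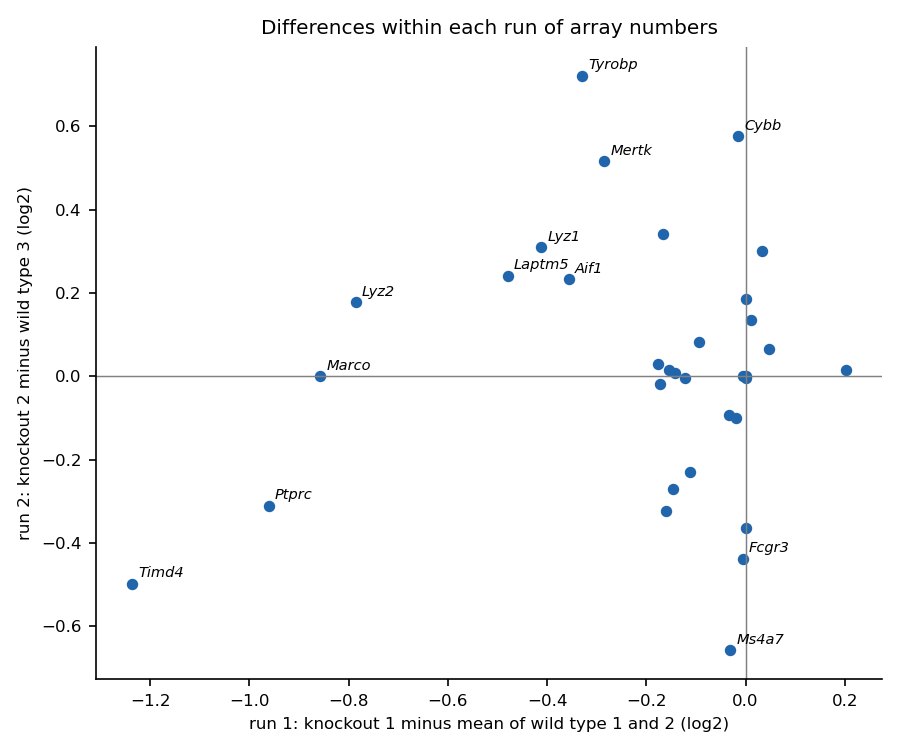
Difference within run 1 (x axis, knockout 1 minus the mean of wild types 1 and 2) against the difference within run 2 (y axis, knockout 2 minus wild type 3), both in log2 units, with a point for each of the 33 genes. Timd4 and Ptprc lie low in both, while Tyrobp, Lyz2 and Laptm5 are lower in run 1 and higher in run 2.

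The 3 genes of the growth factor axis were each lower within run 1 and higher within run 2. Csf1, the growth factor itself, read 7.94 and 8.17 on knockouts 1 and 2 and 7.87, 8.34 and 7.83 on wild types 1 to 3 (8.06 ± 0.17 against 8.01 ± 0.29). Both knockout values fell inside the wild-type range, and the difference was 0.04 ± 0.21 (SE; limma adjusted p = 1.00, 95% interval -0.55 to 0.63). It was -0.17 within run 1 and 0.34 within run 2. Csf1r, the receptor, read 4.88 on both knockout arrays and 4.88, 5.08 and 4.80 on the wild-type arrays. The difference was -0.04 ± 0.09 (SE), with an interval of -0.31 to 0.23. Spi1, which encodes PU.1, lay between 5.13 and 5.52 on all arrays, highest on wild type 2. Of these 3 genes, 0 had groups apart.

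Among the surface markers Ptprc varied most. Ptprc encodes CD45, the tyrosine phosphatase carried by all leukocytes and not by macrophages alone. Its signal (probe set 17227536) was 5.34 and 5.03 on knockouts 1 and 2 and 6.73, 5.87 and 5.34 on wild types 1 to 3. It was the only 1 of the 33 genes whose groups did not overlap, yet knockout 1 and wild type 3 were 0.00288 apart. The means were 5.18 ± 0.22 and 5.98 ± 0.70, a difference of -0.80 ± 0.48 (SE; limma adjusted p = 0.919, 95% interval -2.16 to 0.57). The difference was -0.96 within run 1 and -0.31 within run 2, and stood at -0.42 without wild type 1. T cell genes were also highest on wild type 1: Cd3g read 5.66 there and 3.95 to 4.25 on the other arrays. The 8 measured T and NK genes had a summed linear signal of 239 on wild type 1, 147 to 151 on the other wild-type arrays and 139 to 151 on the knockout arrays, and their part in the Ptprc difference was not tested.

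Ms4a7, a four-pass membrane protein of tissue macrophages, split the knockout arrays. It read 5.84 on knockout 1 and 4.77 on knockout 2, against 5.68, 6.07 and 5.43 on the wild-type arrays. Knockout 2 lay below every wild-type array and knockout 1 among them. The difference was -0.42 ± 0.42 (SE), and 0.12 without knockout 2. Adgre1, the F4/80 antigen, ran from 4.22 on wild type 3 to 4.88 on wild type 1, with knockouts at 4.83 and 4.52. Cx3cr1, the fractalkine receptor, had the same value, 6.57, on all arrays except knockout 2, where it was 6.76. Ccr2, the receptor that draws monocytes out of blood, had 1 value, 3.24, on all 5 arrays.

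Exact ties of this kind were frequent in the deposited table. Of the 33 genes, 13 (39.4%) had the same value, to 1e-06, on at least 2 arrays, as did 68.8% of all genes. The median difference of the 20 genes with 5 different values was -0.11, a restriction chosen after seeing the data. Ties bear on the only calls among the 33 genes. Without knockout 1, limma called Cx3cr1 (difference 0.19, adjusted p = 0.00901), whose 3 wild-type values were tied, and 7.92% of all genes. Without knockout 2 it called Clec7a (difference -0.18, adjusted p = 0.0448), which had 2 tied wild-type values, and 3.76% of all genes. That is 1 of 33 (3.03%) each time, below both shares of all genes, and the remaining knockout array is assumed to vary like the wild type.

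The sequence upstream of Ptprc is shown because this gene had the largest absolute moderated t of the 33. Printed are the 250 bases before an annotated start, chr1:138175306-138175555, minus strand, in the RefSeq annotation of GRCm38.p6, 5′ to 3′. Capitals mark GAGGAA, the core of the PU box that PU.1 binds, and the overlapping ETS-type word GGAAGT, on either strand.
Ptprc: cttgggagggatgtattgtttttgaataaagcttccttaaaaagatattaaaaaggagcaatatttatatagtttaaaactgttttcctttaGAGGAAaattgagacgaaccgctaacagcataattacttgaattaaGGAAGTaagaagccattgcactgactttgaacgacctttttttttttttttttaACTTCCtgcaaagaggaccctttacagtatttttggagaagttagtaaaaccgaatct
The 250 upstream bases were matched by symbol for 25 of the 33 genes, with 29 windows. The other 8 are Adgre1, C1qa, Cd14, Csf1r, Msr1, Siglec1, Spi1 and Tyrobp. GAGGAA was present in 14 of 29 windows (48.3%) and in 23.3% of all 32851 windows of this length, both strands searched. GGAAGT was present in 11 (37.9%, against 19.7%). The longer word GAGGAAG, which contains GAGGAA, was present in 8 (27.6%, against 10.6%). Such a match describes letters only and is not a binding site measured here.

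The complement group was the only role group with every member lower in both runs, as 17.0% of all genes were. C1qa, C1qb and C1qc encode the 3 chains of C1q, which starts the classical complement pathway and is made largely by macrophages. C1qb read 5.09 and 4.38 on the knockout arrays and 5.09, 5.31 and 4.60 on the wild-type arrays. C1qa read 4.06 and 3.74 against 4.06, 4.39 and 4.06, and C1qc read 4.83 and 4.78 against 4.93, 4.98 and 4.78. For all 3 chains wild type 2 was the highest array and knockout 2 the lowest, although C1qc on knockout 2 and on wild type 3 were nearly equal. The differences were -0.27 ± 0.17 (SE) for C1qa, -0.27 ± 0.34 for C1qb and -0.09 ± 0.07 for C1qc, each with a limma adjusted p of 0.919, and the groups overlapped for all 3. Within run 1 they were -0.16, -0.11 and -0.12, and within run 2 -0.32, -0.23 and -0.00418. Without knockout 2 the difference was -0.11 for C1qa and 0.09 for C1qb, and without knockout 1 it was -0.43 and -0.62.

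The upstream bases of the 2 chains with an entry in the table are shown because these genes shared their highest and lowest array. They are chr4:136886201-136886450 for C1qb and chr4:136892915-136893164 for C1qc, both minus strand, GRCm38.p6, with capitals as above.
C1qb: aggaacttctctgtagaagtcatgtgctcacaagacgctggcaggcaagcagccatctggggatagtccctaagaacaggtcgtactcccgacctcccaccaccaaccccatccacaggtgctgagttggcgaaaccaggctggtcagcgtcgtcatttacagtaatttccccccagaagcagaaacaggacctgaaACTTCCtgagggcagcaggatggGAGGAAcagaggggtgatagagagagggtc
C1qc: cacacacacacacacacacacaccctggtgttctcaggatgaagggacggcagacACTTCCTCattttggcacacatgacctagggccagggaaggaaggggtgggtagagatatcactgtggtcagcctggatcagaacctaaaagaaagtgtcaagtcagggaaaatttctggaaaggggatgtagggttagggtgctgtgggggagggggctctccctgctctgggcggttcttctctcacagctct
Both windows hold GAGGAA and GGAAGT. In C1qb the GAGGAA word starts 30 bases before the annotated start and is written on the gene's own strand, and in C1qc it starts 193 bases before it on the opposite strand. Position by position the windows had 55 of 250 letters in common , so the shared words sit in otherwise different sequence.

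The Fc receptors and ITAM adaptors showed 2 patterns. Tyrobp, the adaptor DAP12, read 7.14 and 7.16 on the knockout arrays and 7.55, 7.40 and 6.44 on the wild-type arrays. The knockout arrays lay close to each other, between wild type 3 and the other two, so the difference was 0.02 ± 0.40 (SE; 95% interval -1.12 to 1.17). It was -0.33 within run 1 and 0.72 within run 2. Fcer1g, the gamma chain shared by Fc receptors, read 5.68 and 5.40 against 5.68, 5.98 and 5.67, with knockout 2 the lowest array (-0.24 ± 0.15, SE). Trem2, a lipid-sensing receptor that signals through DAP12, read 4.26 and 4.13 against 4.26, 4.26 and 4.49, again with knockout 2 the lowest. Fcgr3, a low-affinity IgG receptor, ran from 3.92 on knockout 2 to 4.36 on wild type 3, and Fcgr1, the high-affinity receptor, stayed between 4.25 and 4.26. Of the 5 genes, 4 had a lower mean in the knockout and 0 were called.

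Scavenger and pattern receptors differed most in Marco, a collagen-like receptor for bacteria and particles. Marco read 2.87 and 3.13 on the knockout arrays and 3.43, 4.04 and 3.13 on the wild-type arrays. Knockout 2 and wild type 3 were tied, so the difference of -0.53 ± 0.32 (SE; 95% interval -1.44 to 0.39) came from run 1, where it was -0.86. It was -0.28 without wild type 2. Marco was among the 6 genes of low signal. Cd14, the co-receptor for lipopolysaccharide, which epithelial cells can also make, read 9.32 and 8.33 on the knockout arrays and 9.13, 9.10 and 8.31 on the wild-type arrays. The arrays divided by run and not by genotype: the 2 of run 2 lay at 8.31 and 8.33 and the 3 of run 1 at 9.10 to 9.32. Its difference was -0.02 ± 0.45 (SE), and 0.12 with the run as a block.

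The remaining receptors of this group varied little or followed wild type 2. Mrc1, the mannose receptor, ran from 4.79 on knockout 2 to 5.56 on wild type 2. Cd163, the scavenger of haemoglobin, was 3.58 and 3.71 on the knockout arrays and 3.55, 3.58 and 3.58 on the wild-type arrays (0.07 ± 0.05, SE). Clec7a, the beta-glucan receptor dectin-1, read 3.63 on knockout 1 and 3.80 to 3.84 elsewhere. Msr1, a receptor for modified lipoprotein, lay between 3.11 and 3.40, and Siglec1, a sialic acid receptor, between 3.47 and 3.48. Of the 7 receptors in the group, 6 had a lower mean in the knockout, with a median of -0.07. The lower means include Siglec1 at -0.004 and Cd14 at -0.02. Cd163, Clec7a, Msr1 and Siglec1 were, like Marco, among the 6 genes of low signal.

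Timd4, a phosphatidylserine receptor of resident macrophages, had the largest mean difference and the largest range of the 33 genes. It read 3.95 and 3.28 on the knockout arrays and 4.30, 6.08 and 3.78 on the wild-type arrays. Wild type 2 stood 1.36 above the wild-type mean, and knockout 1 lay above wild type 3. The difference was -1.10 ± 0.84 (SE; limma adjusted p = 0.919), and it was -0.42 without wild type 2. The list means of fibroblast, basal and endothelial markers were also highest on wild type 2, at 0.33, 0.32 and 0.25 above the wild-type mean. Gene by gene, 4 of 5 endothelial, 2 of 5 basal and 1 of 6 fibroblast markers peaked on that array, and the rest on a knockout array. Their part in the Timd4 value was not tested. Mertk, a receptor tyrosine kinase for dying cells, was lowest on knockout 1 at 4.31 and highest on knockout 2 at 4.92, with wild-type values of 4.40 to 4.63 between them.

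**Figure D4:**
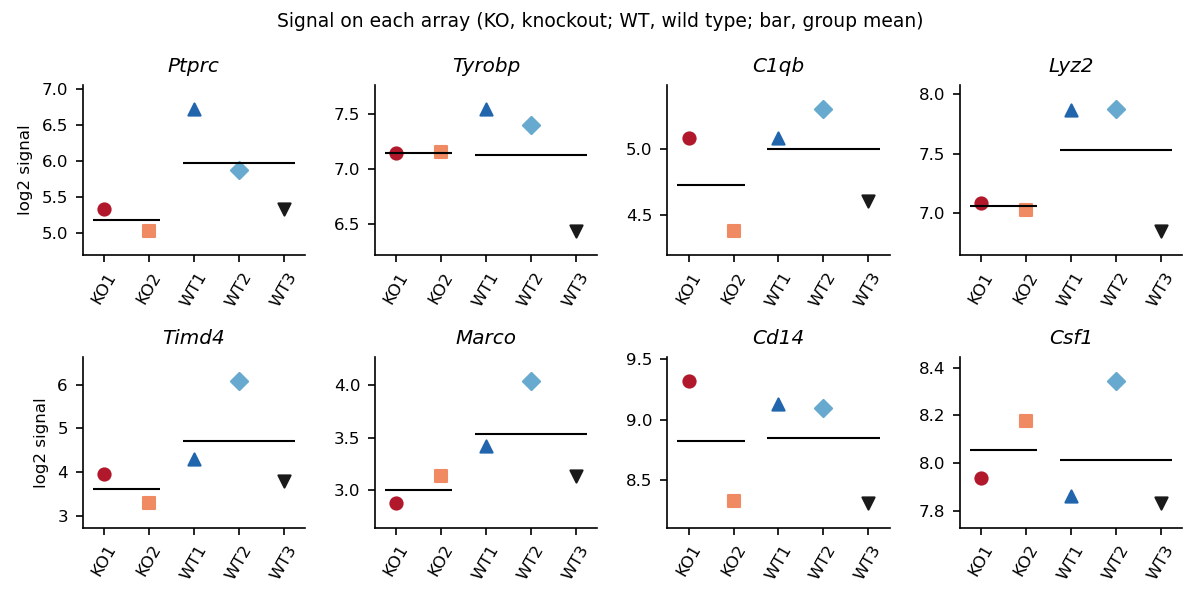
Log2 signal (y axis, a scale of its own in each panel) of 8 of the genes on the 2 knockout (KO) and 3 wild-type (WT) arrays, with group means as bars. Ptprc is the only gene of the 33 with no overlap, Timd4 peaks on wild type 2 at 6.08, and Cd14 divides by run.

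Genes of digestion, killing and motility were lower on both knockout arrays than on wild types 1 and 2 in several cases, with wild type 3 lower still. Lyz2, the lysozyme of macrophages, read 7.09 and 7.03 on the knockout arrays and 7.86, 7.88 and 6.85 on the wild-type arrays. Its difference was -0.47 ± 0.39 (SE; limma adjusted p = 0.919, 95% interval -1.60 to 0.65), -0.79 within run 1 and 0.18 within run 2. Lyz1, its neighbouring near copy, read 3.97 and 4.13 against 4.57, 4.20 and 3.82 (-0.15 ± 0.26, SE). Wild type 3 was the lowest array for both lysozymes. Transcripts of the 2 copies are alike, so how far each probe set reads its own gene alone is uncertain.

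The likeness of the lysozyme genes extends upstream of their starts, which is why both windows are shown. They are chr10:117292869-117293118 for Lyz1 and chr10:117282273-117282522 for Lyz2, both minus strand, GRCm38.p6, with capitals as above.
Lyz1: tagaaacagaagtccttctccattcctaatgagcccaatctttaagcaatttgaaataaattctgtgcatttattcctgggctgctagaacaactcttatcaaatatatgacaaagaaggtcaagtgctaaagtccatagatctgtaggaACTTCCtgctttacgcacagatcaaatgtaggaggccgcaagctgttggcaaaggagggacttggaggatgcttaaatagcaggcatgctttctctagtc
Lyz2: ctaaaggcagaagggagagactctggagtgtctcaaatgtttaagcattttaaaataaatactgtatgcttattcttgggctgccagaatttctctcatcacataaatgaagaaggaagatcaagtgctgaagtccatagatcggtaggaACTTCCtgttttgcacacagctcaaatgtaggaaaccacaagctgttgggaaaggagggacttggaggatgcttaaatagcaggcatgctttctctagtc
The last 50 bases before the start are identical, and 152 of 250 letters (60.8%) match position by position. Neither window holds GAGGAA, and each has GGAAGT on the opposite strand, starting 100 bases before the start.

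The other genes of this group gave the same order in part. Laptm5, a lysosomal membrane protein of leukocytes, read 4.96 and 4.84 on the knockout arrays and 5.57, 5.31 and 4.60 on the wild-type arrays. Aif1, the actin-bundling protein IBA1, read 4.83 and 4.75 against 5.20, 5.18 and 4.52. For both genes wild type 3 was again the lowest array and wild types 1 and 2 the highest. Cybb, the catalytic subunit of the phagocyte oxidase, was 5.01 on both knockout arrays and on wild type 1, 5.04 on wild type 2 and 4.44 on wild type 3 (0.18 ± 0.23, SE). Cd68, a lysosomal glycoprotein, read 7.32 and 7.27 against 7.32, 7.60 and 7.27 (-0.10 ± 0.12, SE). Mpeg1, the pore-forming perforin-2, stayed between 4.56 and 4.73. Lgals3, galectin 3, which epithelial cells also express, stayed between 6.20 and 6.33, with a difference of 0.04 ± 0.04 (SE). Of the 8 genes, 6 had a lower mean in the knockout, 7 were lower within run 1 and 7 were higher within run 2.

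How many genes separated changed with the array left out. Without wild type 3, 12 of the 33 genes (36.4%) had both knockout values below both remaining wild-type values, where 6.24% of all genes did so. They were Aif1, C1qc, Cd68, Laptm5, Lyz1, Lyz2, Marco, Mrc1, Ptprc, Spi1, Timd4 and Tyrobp, and limma still called 0 genes. The share of 6.24% includes genes with exact ties, which were more frequent among all genes than among the 33. Leaving out wild type 1 gave 3 genes with groups apart in either direction (9.01% of all genes), wild type 2 gave 3 (12.5%), knockout 1 gave 17 (46.3%) and knockout 2 gave 6 (37.6%), each beside the share of all genes without that array. Wild type 3 shares its run with knockout 2, and no label gives a ground for leaving it out.

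Other genes of macrophage and monocyte biology were taken from a list of 108, of which 99 were measured. Of these, 62 had a lower mean in the knockout, 34 a higher and 3 an equal one, with a median of -0.04, and 0 were called by limma. Groups were apart downwards for 7 (7.07%, against 2.8% of all genes) and upwards for 2 (2.02%, against 2.63%). Exact ties lower these shares of all genes. Among all genes with 5 different values, 5.7% were apart downwards and 5.37% upwards. Clec4n, the fungal receptor dectin-2, read 3.58 and 3.42 on the knockout arrays and 4.41, 4.98 and 3.90 on the wild-type arrays, a difference of -0.93 ± 0.37 (SE; limma adjusted p = 0.919). Both knockout arrays lay below all wild-type arrays, with differences of -1.11 within run 1 and -0.47 within run 2. Clec12a, an inhibitory lectin of myeloid cells, stood at -0.18 ± 0.06 (SE), Spn, the leukocyte sialoglycoprotein CD43, at -0.14 ± 0.05 and Cd80, a costimulatory ligand, at -0.22 ± 0.10, each with groups apart. On the higher side, Runx1, a haematopoietic transcription factor that epithelium also uses, was 7.96 ± 0.20 against 7.67 ± 0.13 with groups apart. Axl, a receptor for dying cells related to Mertk, was 7.04 ± 0.24 against 6.60 ± 0.25 with groups that overlapped.

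Markers of other cells were read on the same arrays. The luminal keratins of the labelled epithelium had high signals, with Krt8 at 11.34 to 11.48 and Krt18 at 11.18 to 11.44. The summed linear signal of the 6 luminal genes was 7908 to 8890 on the knockout and 8219 to 8350 on the wild-type arrays. That of the 33 macrophage genes was 1788 to 2143 and 1652 to 2450, and the genotypes overlapped in both sums. Such a sum weighs most the genes of highest signal, here Cd14 and Csf1 (means of 8.84 and 8.03). It is therefore not a measure of macrophage content. B and plasma cell genes summed to 71.5 to 72.5 on the knockout and 76.0 to 87.7 on the wild-type arrays, without overlap. All 5 measured had a lower mean in the knockout. Of these genes, Ms4a1, Cd22 and Jchain had groups that overlapped, and their means lay at percentiles 37.1, 31.8 and 13.4 of all genes. Groups were apart for Cd79b, which read 4.22 and 3.86 on the knockout and 4.36, 4.74 and 4.30 on the wild-type arrays. They were also apart for Cd79a, which read 4.56 and 4.67 on the knockout and 4.71 on every wild-type array. The B and plasma cell sums thus do not speak for every gene of the list. Dendritic cell sums were 202 to 216 and 173 to 188, without overlap, while 3 of the 6 genes had a lower mean in the knockout, 2 a higher and 1 an equal one. Cd209a, the gene of highest mean signal in that list, read 6.88 and 7.02 on the knockout and 6.63, 6.35 and 6.71 on the wild-type arrays. The next highest, Zbtb46, read 4.68 on every array. The dendritic sums thus largely follow Cd209a and do not speak for the list. Fibroblast (4506 to 5522 against 4154 to 5387), endothelial (853 to 1373 against 1074 to 1508), neutrophil (250 to 458 against 227 to 408), mast cell (180 to 199 against 181 to 217), adipocyte (1545 to 2672 against 1981 to 2132) and basal epithelial sums (2823 to 2869 against 2211 to 3176) overlapped. All 10 lists held 0 called genes, and their part in the macrophage values was not tested. No marker reads 0 on this scale, so absence of a cell type cannot be read from it. Mmp14 itself was at -0.56 ± 0.39 (SE; limma adjusted p = 0.919), with knockouts at 7.98 and 7.28 and wild types at 8.15, 8.67 and 7.75, so the groups overlapped. Its difference was -0.21 without knockout 2, -0.32 without wild type 2 and -0.91 without knockout 1. The labels do not place its probes with respect to the loxP sites.

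**Figure D5:**
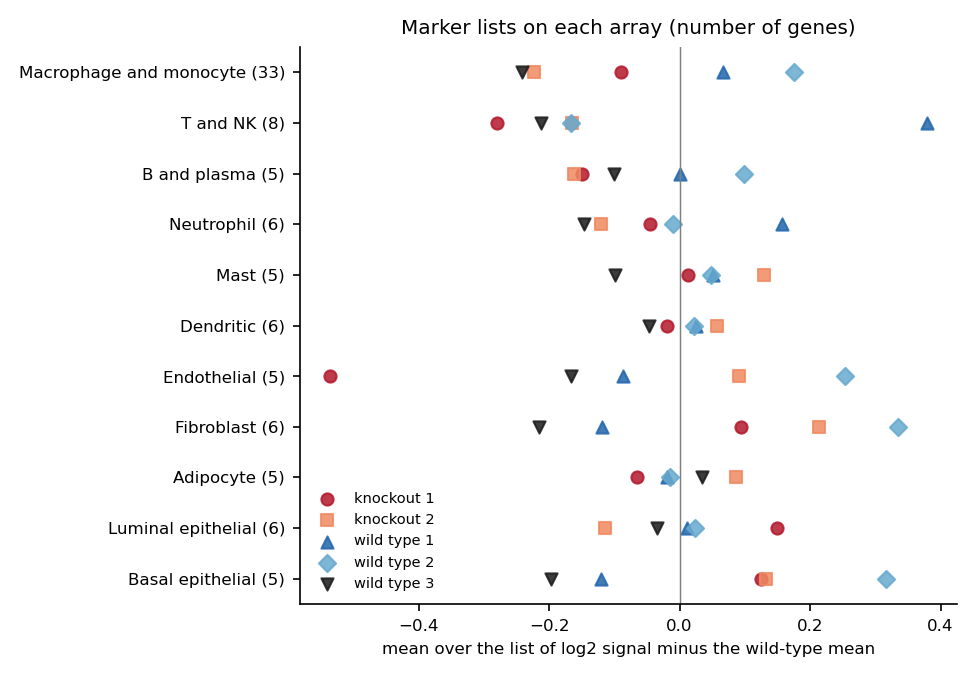
Mean over each marker list of log2 signal minus the gene's wild-type mean (x axis) on each of the 5 arrays, with the number of measured genes in brackets. The macrophage list orders the arrays from wild type 3 (-0.24) to wild type 2 (0.17), T and NK genes are highest on wild type 1 (0.38), and endothelial genes are lowest on knockout 1 (-0.54).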

How the data were processed

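The authors deposited log2 signals for each probe set. The submitters' processing notes list RMA and limma with no version. The build was not given in the sources used here. Of 41345 probe sets, 23521 have 1 gene symbol in GEO's platform annotation and 1814 have several. The rest are unnamed here. Of 22180 genes, 1082 had more than 1 probe set and kept that of highest mean over the arrays. All were fitted together, without covariates, by limma 3.58.1 under R 4.3.3 (eBayes after lmFit), and two-sided p-values were adjusted by Benjamini-Hochberg. The procedure was tested on simulated data. The 33 genes, the 108 other macrophage genes and the 10 marker lists were chosen with earlier results of these data known. Genes given in full were the 4 of highest mean, 6 of largest moderated t and 6 of largest range, and the members of named complexes. Others are given by range; Clec7a, Cybb, Laptm5 and Aif1 were detailed after their values were seen. From the 99 other measured genes, the 6 of largest moderated t are named. Marker lists name at most 3 genes of highest mean, except Cd3g and the B and plasma cell genes, chosen after their values were seen. Alternatives were quantile normalisation, median centring, leaving out genes under the 40th percentile, averaging probe sets, run or replicate number as a block, each run alone and leaving out each array. The number of arrays limits the precision.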

Additional observations from a re-analysis of the deposited data

How the results depend on the processing

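Limma called 0 genes in every alternative that kept all 5 arrays (of 22180, or of 13308 without dim genes) and in run 1 alone, where the lone knockout array is assumed to vary like the wild type; leaving out 1 array gave 0 to 1757 genes (1757 without knockout 1, 835 without knockout 2) and 0 to 1 of the 33 macrophage genes. The median difference moved by less than the SD between wild-type arrays (0.14) throughout, from -0.15 to 0.01. Of the 33, groups were apart for 4 after quantile normalisation, 3 after median centring, 16 in run 1 alone (48.5%, against 46.6% of all genes) and 3 to 17 with an array left out. After quantile normalisation and median centring, which break exact ties, groups were apart for 15.8% and 17.2% of all genes. With the run as a block only Cd14 of the 33 turned sign (0.12). Run 1 alone turned 5: Cd14 (0.20), Csf1 (-0.17), Cybb (-0.0145), Tyrobp (-0.33) and Mertk (-0.28). Run 2 alone, 1 array against 1, turned 9 of the 33 signs, all from lower to higher: Lyz2 (0.18), Lyz1 (0.31), Laptm5 (0.24), Aif1 (0.23), Csf1r (0.0819), Clec7a (0.0293), Cd14 (0.0161), Spi1 (0.0158) and Cd68 (0.00752). With an array left out, the range crossed 0 for 15 of the 33: C1qb -0.62 to 0.0857, Cd14 -0.52 to 0.47, Cd68 -0.17 to 0.00170, Clec7a -0.18 to 0.0352, Csf1 -0.0765 to 0.21, Csf1r -0.0944 to 0.0422, Cybb -0.0145 to 0.29, Lyz1 -0.33 to 0.0417, Ms4a7 -0.95 to 0.12, Tyrobp -0.32 to 0.23, Adgre1 -0.13 to 0.23, Mertk -0.22 to 0.39, Mrc1 -0.41 to 0.0204, Msr1 -0.17 to 0.00529 and Spi1 -0.20 to 0.000222. The cause was not tested. Replicate numbers are shared by 2 pairs and nothing in the labels makes them pairs. Deviations from the group means correlated at 0.25 for number 1 and -0.04 for number 2 across genes. The value for knockout 2 with wild type 3, which share a run and no number, was 0.26. With 2 knockout arrays the deviations of 1 mirror those of the other, so these values are not independent and cannot decide about pairing. Under the replicate block the median was -0.15, 0 genes were called, and Csf1 (-0.0481), Cybb (-0.0145), Tyrobp (-0.32) and Adgre1 turned sign. No gene of the 33 is resolved to better than its interval at this number of arrays.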

Other observations

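Some further macrophage genes, chosen after their values were seen, had their highest signal on wild type 2, as Timd4 and Marco did. Over the 99 other macrophage genes wild type 2 alone was highest for 29 (29.3%, against 15.4% of all genes). Wild type 1 alone was highest for 31 (31.3%, against 15.5%). Spic, a transcription factor of red pulp macrophages, read 6.57 on wild type 2, 5.42 and 4.75 on wild types 1 and 3, and 5.13 and 4.31 on knockouts 1 and 2. Lyve1, a hyaluronan receptor of resident macrophages and of lymphatic endothelium, read 6.42 on wild type 2, 5.16 and 5.09 on the other wild-type arrays, and 5.04 and 4.92 on the knockout arrays, so that its groups did not overlap. Clec4n has its highest value, 4.98, on the same array. None was called by limma (adjusted p = 0.919 for each).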
